A study of Mus musculus with 71 samples.

Results

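The 10 T-box genes T, Eomes, Tbx1, Tbx2, Tbx3, Tbx4, Tbx5, Tbx15, Tbx18 and Tbx20 were followed through 9 peak tables of mouse J1 embryonic stem cells (ESC) and of cells made from them. A region was taken as a member when the table named a T-box gene of this list for it and its centre lay no more than 10000 bases from that gene's transcription start. This gave 135 regions out of 72567 in all tables, between 11 and 21 in each table, and each of the 10 genes had at least 1 region in every table. Where a gene had several, the strongest by its mean over the libraries was used for the gene. The cells expressed CBX7 in a CBX7-mCaPS form (mCaPS), in a CBX7-CaPS form (CaPS) or as wild type (WT). From the series title, the domain brought into the complex is found in Polycomb proteins of committed cells, and the letters of mCaPS have no explanation in the labels. The ESC grew on a feeder layer of fibroblasts, neural progenitor cells (NPC) were collected at day 6 or day 8 of differentiation through aggregates with retinoic acid, and embryoid bodies (EB) were collected at day 10. By chromatin immunoprecipitation with sequencing (ChIP), CBX7 and RING1B in ESC had 3 libraries each of CaPS and of WT, H3K27me3 in ESC and RING1B in day-8 NPC had 2 of each, and a RING1B time course had 2 of each genotype at ESC, day 6 and day 8. By CUT&RUN, which cuts chromatin where an antibody sits, RING1B in ESC had 1 library each of mCaPS, CaPS and WT, and H3K27me3 in ESC and RING1B in day-10 EB had 1 each of CaPS and WT. H3K27me3 ChIP in day-8 NPC is given as 1 column for CaPS and 1 for WT that the headers call pooled, although the labels list 1 library of each (experiment 5), so what was pooled is not known. CBX7 knockout libraries were not analysed here.

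T-box genes code for transcription factors that share a DNA-binding domain named after T (Brachyury), and most of them act at a set time and place in the embryo. Polycomb repressive complex 2 (PRC2) methylates lysine 27 of histone H3 to give H3K27me3. Complexes of the PRC1 type carry the ubiquitin ligase RING1B, and the canonical ones also carry a CBX protein, such as CBX7 in ESC, whose chromodomain binds H3K27me3. Both marks lie over silent developmental genes of ESC, among them many T-box genes. T is needed for the primitive streak, posterior mesoderm and notochord, and Eomes for mesoderm migration and definitive endoderm. Tbx1 acts in the pharyngeal arches and the cardiac outflow tract, Tbx5 in the heart and forelimb, Tbx4 in the hindlimb, Tbx20 in heart muscle and valves, and Tbx18 in the epicardium, sinus horn and somites. Tbx2 and Tbx3 are repressors that act in heart, limb and mammary gland, Tbx3 is also expressed in ESC, and Tbx15 acts in the skeleton of limb and head. Tbx2 and Tbx4 are neighbours on chromosome 11, and Tbx3 and Tbx5 are neighbours on chromosome 5. None of the libraries measured RNA, so whether a gene was transcribed is not known from them.

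The RefSeq promoter table (GRCm38.p6, the same build as mm10) held 7 promoters of 6 of these genes, Eomes, T, Tbx1, Tbx4, Tbx18 and Tbx20. The 250 bases before the start are printed 5′ to 3′ on the gene's strand for T, Tbx18 and Tbx20, with CpG dinucleotides in capitals. These 3 genes serve as examples of different RING1B values over the stages, given below. A difference between their courses was not tested. The window is chr17:8434173-8434422 on the plus strand for T, chr9:87731261-87731510 on the minus strand for Tbx18 and chr9:24774304-24774553 on the minus strand for Tbx20.
T: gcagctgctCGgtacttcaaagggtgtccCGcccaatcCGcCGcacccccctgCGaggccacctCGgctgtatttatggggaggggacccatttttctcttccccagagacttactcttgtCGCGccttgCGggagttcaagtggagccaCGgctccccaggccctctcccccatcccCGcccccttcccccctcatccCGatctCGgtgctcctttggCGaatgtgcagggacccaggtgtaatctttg
Tbx18: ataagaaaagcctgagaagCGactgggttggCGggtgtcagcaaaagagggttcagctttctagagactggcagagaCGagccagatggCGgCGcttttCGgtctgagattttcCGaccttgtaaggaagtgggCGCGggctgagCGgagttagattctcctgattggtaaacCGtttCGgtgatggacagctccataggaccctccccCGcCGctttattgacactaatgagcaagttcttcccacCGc
Tbx20: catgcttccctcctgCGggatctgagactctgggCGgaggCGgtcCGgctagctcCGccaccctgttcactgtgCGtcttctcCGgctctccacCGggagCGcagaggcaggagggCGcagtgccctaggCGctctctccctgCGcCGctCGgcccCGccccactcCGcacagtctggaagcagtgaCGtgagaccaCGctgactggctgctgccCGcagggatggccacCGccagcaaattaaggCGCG
The T window held 14 CpG, the Tbx18 window 15 and the Tbx20 window 22, while the Eomes window held 8, the Tbx4 window 6 and both windows of Tbx1 17 and 10. The median over all 32851 RefSeq promoters was 6, and 29.4%, 27.3% and 14.8% of them held at least as many CpG as T, Tbx18 and Tbx20. The core of the site that T-box proteins bind was searched as AGGTGTGA and, for the other strand, TCACACCT, which do not overlap each other. It occurred in none of the 7 windows and in 1.12% of all promoters, which says only that these letters are not in these 250 bases. The windows of Tbx1, Tbx18 and Tbx20 lay inside the gene's strongest peak in all 9 tables, those of T and Eomes in 8 and that of Tbx4 in 5.

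CBX7 and RING1B in ESC formed a broad domain at each T-box gene. There, where CBX7 and RING1B were read over the same intervals, the strongest domains ran over 8.07 kb at T (chr17:8429036-8437107) up to 28.7 kb at Tbx15 (chr3:99233776-99262436), with a median of 15.9 kb. Those of Eomes (chr9:118473920-118483285), Tbx4 (chr11:85884907-85896924), Tbx1 (chr16:18578962-18593542), Tbx20 (chr9:24766867-24782570), Tbx5 (chr5:119829500-119845500), Tbx18 (chr9:87724872-87741574), Tbx2 (chr11:85827811-85846294) and Tbx3 (chr5:119655961-119677115) lay between these widths. Each of the 10 was wider than at least 95.6% of all peaks of its table. H3K27me3 ChIP peaks of ESC were narrower at some genes. Tbx5 was split into 4 of them, the strongest 1.68 kb wide and 7631 bases past the start, and T into 3, the strongest 2.27 kb wide. In the ESC RING1B table the annotation at the centre of the peak was the promoter for Tbx20, the 5′ UTR for Eomes, an exon for Tbx4, an intron for Tbx1, Tbx2 and Tbx5, and intergenic sequence for T, Tbx3, Tbx15 and Tbx18. Of the 14 T-box intervals of ESC RING1B, 12 overlapped an H3K27me3 ChIP peak of ESC, 13 an H3K27me3 CUT&RUN peak, 13 a RING1B peak and 14 an H3K27me3 peak of day-8 NPC, and 12 a RING1B peak of day-10 EB, by at least 1 base. The same shares over all 6326 intervals were 41.2%, 54.7%, 45.8%, 52.9% and 54.7%, and wide intervals meet others more easily. All 10 strongest domains overlapped a peak in each of those sets.

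In the ESC CBX7 table the largest region beyond a strongest domain was one downstream of Eomes. It lay 9169 bases past the start and held 93.1 to 853 CBX7 tags per 10 M in ESC, while the other 3 further regions of that table held at most 83.1. In other tables a further region could come close to the strongest. At Tbx5, H3K27me3 ChIP in ESC held 35.5 and 40.8 tags per 10 M in CaPS (experiments 1 and 5), against 35.7 and 65.0 in WT, at -4292 bases from the start, beside 46.8 and 58.0 in CaPS, against 39.6 and 85.7 in WT, in its strongest region. RING1B in day-8 NPC had a region of 3.43 kb at -2129 bases from the start of Tbx5 with 23.7 and 51.5 in CaPS (experiments 3 and 4), against 77.4 and 155 in WT. At the limit of the rule, the outermost region taken in was one of Eomes in day-10 EB, 9712 bases from the start, with 20.3 and 28.4 RING1B tags per 10 M. The nearest region left out was one of Tbx18 in the H3K27me3 ChIP of ESC, 10684 bases from the start, with 4.32 to 7.73 tags per 10 M.

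Values are tags in a region scaled to 10 M tags per library. Library totals ran from 2.01 to 49.1 M tags, the share of tags inside peaks from 1.96% to 19.3%, and the level that 3 tags stand for, the most that an observed 0 allows, from 0.611 to 14.9 tags per 10 M. Intervals and floors cover counting error only. Libraries of experiment 2 stood apart in ESC, with 7.10% (CaPS) and 17.0% (WT) of CBX7 tags in peaks, and the time course of experiment 5 was the shallowest, from 2.01 to 6.20 M tags. Carry-over of feeder fibroblasts was not measured, since no RNA was read and 7 of 12 fibroblast markers had a RING1B peak of their own in ESC. The labels do not say whether experiments used separate cultures. A limma p-value therefore sets a change against the typical scatter of similarly strong regions in these samples, which may be technical. It does not rest on the scatter of the region itself.

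CBX7 at T-box genes was lower in CaPS than in WT ESC. At T it was 220, 599 and 306 tags per 10 M in CaPS (experiments 1, 2 and 3), against 610, 1493 and 566 in WT. The CaPS library was below the WT library of its own experiment in each pair, but the groups overlapped, because experiment 2 was high in both genotypes. At Tbx5, the gene of heart and forelimb, it was 210, 567 and 342 in CaPS, against 511, 1909 and 795 in WT. The change was log2 -1.41 (SE 0.29, limma adjusted p = 1.3e-05) at Tbx5 and -1.22 (SE 0.28, adjusted p = 0.000133) at T, with n = 3 each. Tbx4, the hindlimb gene, changed by -1.32 and Tbx20 by -1.21, and Tbx15, Tbx2, Tbx18, Eomes and Tbx1 by between -1.12 and -0.88, with limma adjusted p between 6.47e-05 and 0.0238. Tbx3 had 722, 1719 and 1007 tags per 10 M in CaPS, against 1463, 3386 and 1049 in WT, a log2 value of -0.69 that did not pass (adjusted p = 0.0707). In experiments 1 and 2 Tbx3 in CaPS stood at 0.493 and 0.508 of WT, and in experiment 3 at 0.959. The share of all CBX7 tags that lay inside peaks was also lower in CaPS than in WT in each experiment. Its part in these values was not tested, so whether binding itself was lower is not known. Fewer cells with bound CBX7 and less CBX7 per cell could also not be told apart in such bulk libraries.

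Of the 14 T-box regions, 10 passed as lower and 0 as higher, among 44.3% lower and 0.0632% higher over all 6326 regions. The 10 were the strongest domains of 9 genes and the downstream region of Eomes (log2 -1.05). The median change of the 10 genes was -1.07 and that of all regions -0.85. By experiment, the median of the 10 genes was -1.34, -1.36 and -0.64 in experiments 1, 2 and 3, against -0.91, -1.14 and -0.44 for all regions. By edgeR 10 T-box regions passed as lower as well. The calls did not hold under every setting, and without the experiment block none passed (0.0316% of all regions). Without experiment 1 only 1 T-box region passed, without experiment 2 none, and without experiment 3 12 did, beside 18.6%, 24.1% and 43.6% of all regions. When libraries were scaled to the same sum over peaks, which moves the median of all regions to +0.11, no T-box region passed as lower (1.63% of all regions). Tbx3 was then higher in CaPS (log2 0.37, adjusted p = 0.00563), and Tbx2, Tbx1, Eomes and Tbx18 turned to between 0.03 and 0.17.

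**Figure D1:**
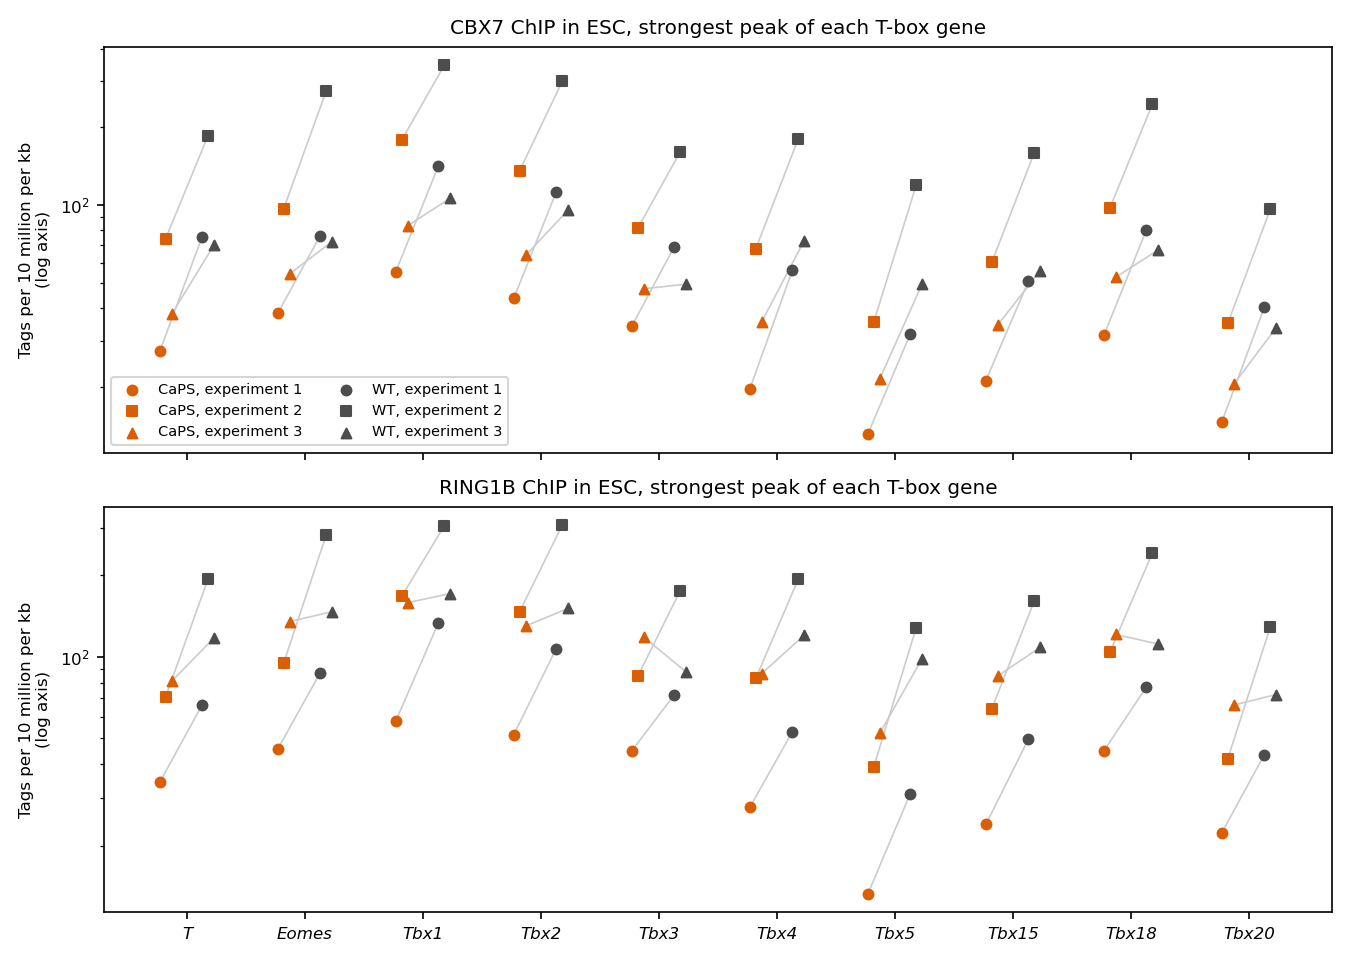
CBX7 (top) and RING1B (bottom) ChIP signal over the strongest ESC domain of each T-box gene, in tags per 10 M and kb on a log axis, for CaPS (orange) and WT (grey), with 1 symbol per experiment and lines joining libraries of the same experiment. Experiment 2 is the highest of the WT libraries at every gene, CBX7 in CaPS lies below WT in all 3 experiments, and RING1B at Tbx3 and Tbx18 lies above WT in experiment 3; with equal sums over peaks CBX7 at Tbx3 is higher in CaPS, as given in the text.

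RING1B ChIP over the same ESC intervals gave no T-box region that passed. At T it was 276, 573 and 654 tags per 10 M in CaPS, against 535, 1565 and 946 in WT, and at Tbx5 212, 624 and 832 in CaPS, against 498, 2049 and 1570 in WT. CaPS was below WT within each experiment at these genes, with overlapping groups. At Tbx3 the libraries held 948, 1786 and 2500 tags per 10 M in CaPS, against 1526, 3704 and 1856 in WT, so that experiment 3 went the other way. Tbx18 did the same in experiment 3, with 2016 in CaPS, against 1858 in WT. Log2 values lay between -1.29 at Tbx5 (SE 0.38, limma adjusted p = 0.0890) and -0.44 at Tbx3 (adjusted p = 0.554). The 14 regions gave 0 lower and 0 higher calls, with 0.142% lower and 0% higher over all regions, where 1174 regions had an unadjusted p under 0.05 by limma and 949 by edgeR, which called no T-box region either. The median of the 10 genes was -0.95, -1.27 and -0.17 in experiments 1, 2 and 3, and that of all regions -0.53, -1.42 and 0. Without experiment 3, 11 of the 14 T-box regions passed as lower, among 17.4% of all regions.

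CUT&RUN ordered the 3 genotypes alike at all 10 genes, with mCaPS lowest, CaPS between and WT highest. The sums over all peaks had the same order, and the share of all regions with it was not counted. With 1 library each there is no replicate check, and intervals of ratios are exact binomial at 95% from counting error alone. T had 104 tags per 10 M in mCaPS, 171 in CaPS and 255 in WT. Tbx20 had 120 in mCaPS, 231 in CaPS and 387 in WT, and Tbx2 had 311 in mCaPS, 551 in CaPS and 939 in WT. The spread between genotypes was smallest at Tbx3, with 449 in mCaPS, 817 in CaPS and 972 in WT. The ratio of mCaPS to WT ran from 0.311 (0.256 to 0.373) at Tbx20 to 0.462 (0.418 to 0.510) at Tbx3. The ratio of CaPS to WT ran from 0.587 (0.535 to 0.643) at Tbx2 to 0.840 (0.776 to 0.910) at Tbx3, and that of mCaPS to CaPS from 0.489 (0.418 to 0.571) at Tbx18 to 0.649 (0.543 to 0.777) at Tbx4.

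Past 2-fold lower on the log2(value + 1) scale were 12 of 13 T-box regions for mCaPS against WT (44.9% of all 10106 regions), 1 for CaPS against WT (22.5%) and 2 for mCaPS against CaPS (10.1%). None was past 2-fold higher on that scale, against 0.356%, 0.455% and 3% of all regions, and a weak region of T with 5 tags in mCaPS and 2 in CaPS had a plain ratio of 2.51 (0.409 to 26.2). The median log2 ratio of the 10 genes was -1.29 for mCaPS against WT, -0.44 for CaPS against WT and -0.83 for mCaPS against CaPS, and that of all regions -0.93, -0.62 and -0.33. The share of tags inside peaks followed the same order, 2.07% in mCaPS, 3.01% in CaPS and 4.61% in WT, and its part in the result was not tested. With the sums over peaks made equal, no T-box region was past 2-fold lower for mCaPS against WT (3.45% of all regions), CaPS against WT (5.68%) or mCaPS against CaPS (3.7%), and 1 was past 2-fold higher in mCaPS against CaPS (9.73%). The median log2 ratio of the 13 T-box regions was then +0.20 for CaPS against WT, -0.14 for mCaPS against WT and -0.29 for mCaPS against CaPS. By these medians CaPS no longer lay between mCaPS and WT.

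**Figure D2:**
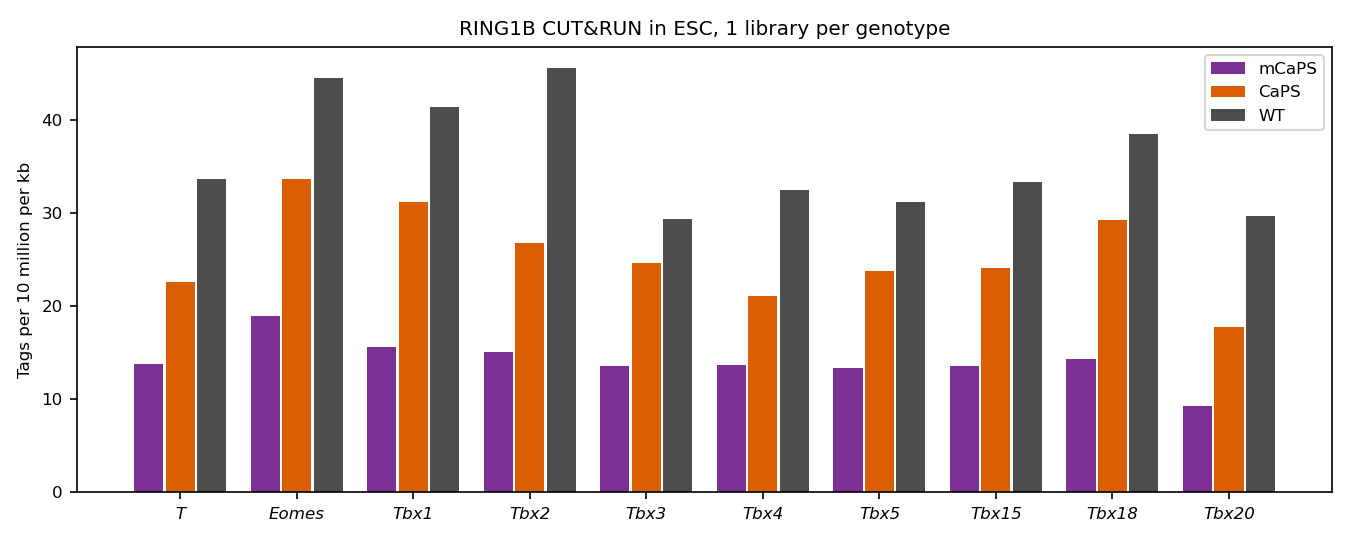
RING1B CUT&RUN signal in ESC over the strongest region of each T-box gene, in tags per 10 M and kb, with 1 library each of mCaPS (purple), CaPS (orange) and WT (grey). At all 10 genes the bar of mCaPS is the lowest and that of WT the highest. With equal sums over peaks no gene is past 2-fold lower, and the median log2 ratio of CaPS to WT over the T-box regions is +0.20.

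No T-box region passed for H3K27me3 in ESC. By ChIP, T had 75.0 and 77.8 tags per 10 M in CaPS (experiments 1 and 5), against 54.9 and 114 in WT, and Tbx1 had 633 and 750 in CaPS, against 530 and 921 in WT. In both cases the CaPS libraries fell between the WT libraries. In experiment 1 all 10 genes were higher in CaPS, and in experiment 5 9 of 10 were lower, with T-box medians of +0.23 and -0.34 and medians of all regions of +0.30 and -0.32. Over all regions 32.9% were lower in CaPS in experiment 1 and 75.4% in experiment 5. Log2 values over both experiments lay between -0.23 at Tbx4 and +0.11 at Eomes. Standard errors at about 0.50 leave changes of that size, and larger ones, undetected. Of genes outside the 10, Bmp4 at +1.11 and Col1a2 at -1.10 did not pass either. Of 21 T-box regions 0 passed by limma in either direction, as in the table as a whole (0% of 9195), where 101 regions had an unadjusted p under 0.05 by limma and 92 by edgeR, which also made no call.

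By CUT&RUN, with 1 library each, H3K27me3 at Tbx3 was 1819 tags per 10 M in CaPS, against 1097 in WT (ratio 1.66, 1.56 to 1.76). Tbx18 (992 in CaPS, against 655 in WT) had a ratio of 1.51, and Tbx1 and Tbx15 of 1.44 each. Tbx5 (491 in CaPS, against 513 in WT) had a ratio of 0.957 (0.865 to 1.06) and Tbx4 (509 in CaPS, against 502 in WT) of 1.02 (0.918 to 1.12), intervals that hold equality. None of 13 T-box regions was past 2-fold in either direction, with 0.873% lower and 4.2% higher over all 4926 regions, and the sum over all peaks in CaPS was 1.26 times that in WT.

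From ESC to day 8 of neural differentiation, RING1B passed as lower at the strongest region of 7 of the 10 T-box genes in CaPS (14.1% of all regions). In WT 5 passed (20.9%). Values were below those of ESC at 9 and 8 genes in CaPS (experiments 3 and 5) and at 10 and 7 in WT. Over all regions 74.2% and 59.7% were below in CaPS, and 69.2% and 66.3% in WT. The difference of the genotypes in the change, tested directly below, passed at no T-box region. T, the primitive streak gene, passed as lower in both genotypes. In CaPS it held 685 and 628 tags per 10 M in ESC (experiments 3 and 5), 184 and 306 at day 6 and 135 and 188 at day 8. In WT it held 971 and 884 in ESC, 245 and 192 at day 6 and 95.7 and 164 at day 8. The ESC libraries lay above those of day 6 and day 8 in both genotypes. The change at T to day 8 was log2 -2.04 (SE 0.36, limma adjusted p = 1.33e-06) in CaPS and -2.87 (adjusted p = 7.62e-13) in WT, and to day 6 -1.46 (adjusted p = 0.00282) in CaPS and -2.09 (adjusted p = 9.87e-07) in WT. Eomes kept more: it held 1773 and 1998 tags per 10 M in ESC, 748 and 1666 at day 6 and 892 and 1607 at day 8 in CaPS, with 1819 and 1725, 991 and 999, and 652 and 1465 in WT. None of its 4 stage changes passed at the strongest region (limma adjusted p between 0.177 and 0.364), while the weak region 8811 bases before its start passed as lower in WT at both stages.

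Among the genes of heart, limb and pharynx, Tbx1 fell at both stages in both genotypes. It held 2360 and 2354 tags per 10 M in ESC, 642 and 1390 at day 6 and 347 and 531 at day 8 in CaPS, with 2537 and 2134, 808 and 922, and 403 and 863 in WT. Tbx5 held 835 and 837 in ESC, 197 and 324 at day 6 and 125 and 202 at day 8 in CaPS, with 1573 and 1758, 852 and 919, and 312 and 986 in WT. Tbx5 in CaPS passed at day 6 (log2 -1.72, limma adjusted p = 0.000835) and at day 8 (-2.39, adjusted p = 1.05e-07), and in WT at day 8 (-1.58, adjusted p = 0.000537). Tbx18, the epicardial gene, had values above those of ESC at day 6 in all 4 pairs of libraries. It held 2065 and 2288 tags per 10 M in ESC, 2337 and 5769 at day 6 and 2494 and 5030 at day 8 in CaPS, with 1894 and 2222, 2141 and 2392, and 1656 and 3338 in WT. Its log2 values of +0.76 and +0.70 in CaPS and +0.14 and +0.20 in WT did not pass. All 4 passed as higher when the sums over peaks were made equal.

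In CaPS, Tbx3 passed as lower at day 6 (log2 -1.84, limma adjusted p = 0.00734) and at day 8 (-2.25, adjusted p = 0.000146), and Tbx20 at day 8 (-1.55, adjusted p = 0.00311), while in WT neither passed at either stage, with log2 values between -0.37 and +0.09. Tbx3, a repressor gene, held 3312 and 3333 tags per 10 M in ESC, 677 and 1266 at day 6 and 510 and 952 at day 8 in CaPS, with 2368 and 3232, 2308 and 2621, and 1149 and 4008 in WT. As a share of the ESC value of the same experiment, Tbx3 stood at 20.4% and 38.0% at day 6 in CaPS, against 97.5% and 81.1% in WT, and at 15.4% and 28.5% at day 8 in CaPS, against 48.5% and 124% in WT. The heart gene Tbx20 held 1055 and 1213 tags per 10 M in ESC, 414 and 793 at day 6 and 271 and 550 at day 8 in CaPS, with 1152 and 1043, 1147 and 1188, and 578 and 1928 in WT. Its day-8 share was 25.7% and 45.4% in CaPS, against 50.2% and 185% in WT, so the WT libraries of day 8 differed more from each other than from those of ESC.

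Tbx2 held 2391 and 2639 tags per 10 M in ESC, 743 and 1596 at day 6 and 518 and 890 at day 8 in CaPS, with 2780 and 2955, 1518 and 1654, and 620 and 1705 in WT. Its neighbour Tbx4 held 1063 and 971, 426 and 935, and 294 and 509 in CaPS, with 1478 and 1784, 849 and 887, and 392 and 1061 in WT. Both passed as lower at day 8 in both genotypes. Tbx15, the skeletal gene, held 2429 and 2253, 1297 and 3361, and 1458 and 3046 in CaPS, with 3126 and 3533, 2069 and 2222, and 1364 and 3251 in WT, and passed at no stage. Its experiments 3 and 5 went apart at day 6 in CaPS, with 53.4% and 149% of the ESC value.

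Counted over the 11 T-box regions of the time course, 4 passed as lower at day 6 in CaPS (5.06% of all 15091 regions) and 3 in WT (14.6%), and 7 at day 8 in CaPS (14.1%) and 6 in WT (20.9%). None passed as higher, against 2.45%, 1.61%, 1.63% and 1.73% of all regions in the same order. The counts leaned on single ESC libraries: without CaPS ESC of experiment 3 none passed at day 6 and 3 at day 8 in CaPS, and without WT ESC of experiment 3 1 passed at day 6 and 4 at day 8 in WT. Without CaPS ESC of experiment 5 or CaPS day 6 of experiment 3, 2 passed at day 6 in CaPS. Without CaPS day 8 of experiment 3, 4 passed at day 8 in CaPS, without WT day 6 of experiment 5 1 passed at day 6 in WT, and without WT day 8 of experiment 3 3 passed at day 8 in WT. Over the single libraries left out, the share of all regions called lower ran from 1.16% to 6.15% at day 6 and from 5.82% to 16.2% at day 8 in CaPS, and from 4.07% to 16.7% and from 12.9% to 22.5% in WT. Without the experiment block 1 passed at day 6 in CaPS (1.63% of all regions), and 1 at day 6 (8.26%) and 3 at day 8 (14.9%) in WT. With equal sums over peaks 7 T-box regions passed as lower and 2 as higher at day 8 in CaPS (5.37% and 5.08% of all regions), and 2 as lower and 4 as higher in WT (5.68% and 8.95%). Eomes turned to +0.05 in CaPS and to +0.29 in WT and Tbx15 in WT to +0.49. The median change of the 10 genes to day 8 was -1.72 in CaPS and -1.09 in WT, beside -0.48 and -0.61 for all regions. The difference of the genotypes in the change was tested directly, and no T-box region passed for day 6 (0.0199% lower and 0.351% higher over all regions) or for day 8 (0.0729% and 0.199%). By limma 2022 and 1191 regions had an unadjusted p under 0.05 for these 2 differences, and by edgeR, which called no T-box region either, 1126 and 943. At Tbx3 this difference was log2 -1.67 (SE 0.70, limma adjusted p = 0.269) for day 6 and -1.89 (adjusted p = 0.398) for day 8. At Tbx20 it was -1.07 (adjusted p = 0.414) and -1.49 (adjusted p = 0.476). With equal sums over peaks 3 T-box regions passed for day 6 (0.232% of all regions) and 5 for day 8 (0.437%), all with a more negative change in CaPS. Sums over all peaks at day 6 were 55.4% and 109% of ESC in CaPS (experiments 3 and 5), against 52.7% and 55.8% in WT, and their part in these values was not tested.

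**Figure D3:**
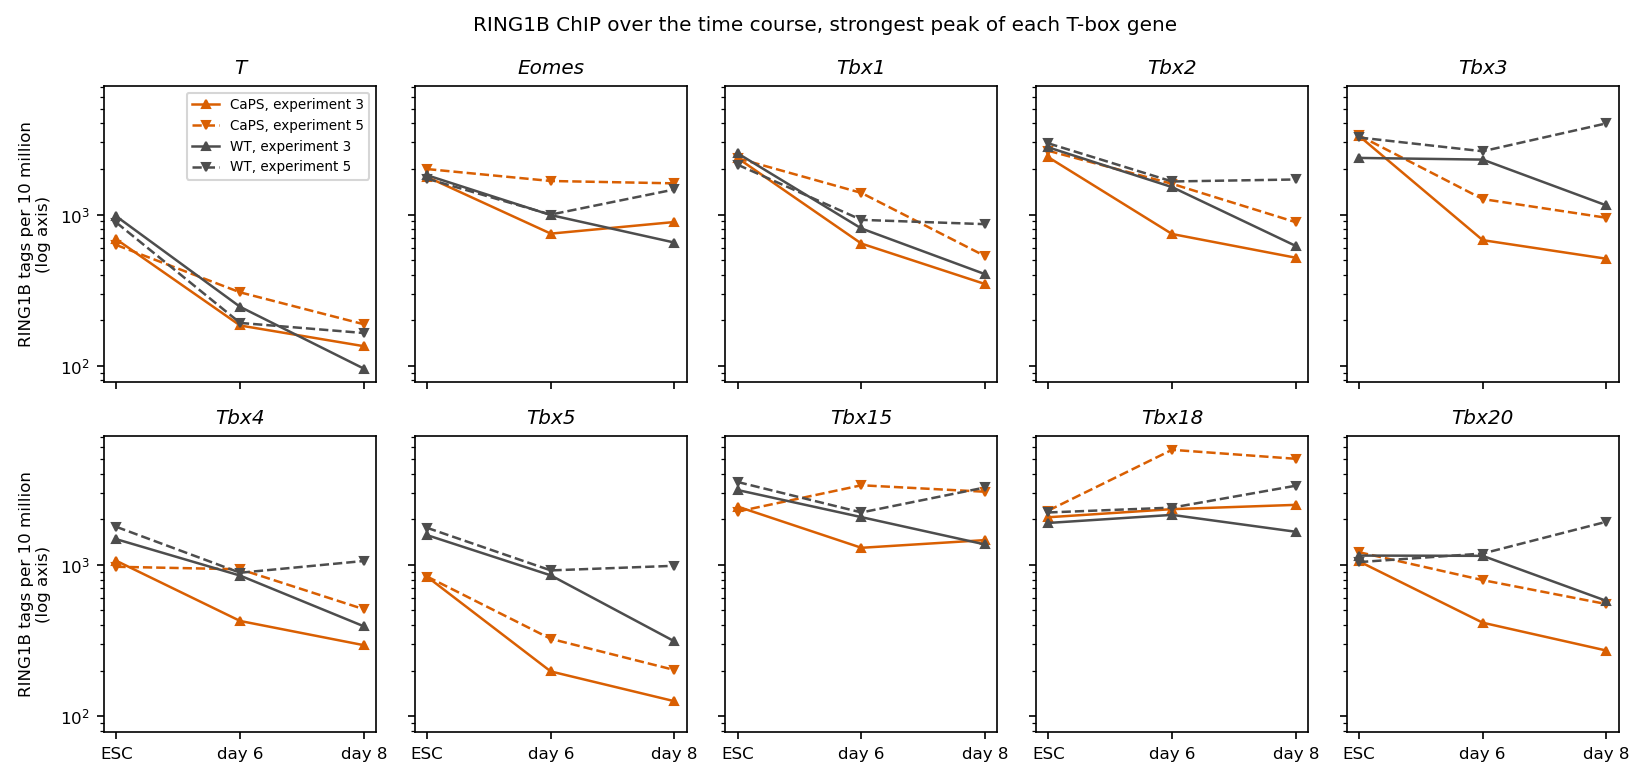
RING1B ChIP signal (tags per 10 M, log axis) over the strongest region of each T-box gene in ESC and at day 6 and day 8 of neural differentiation, for CaPS (orange) and WT (grey), with a line for each experiment (3 solid, 5 dashed). T falls in all 4 lines, Tbx18 ends above its ESC value in 3 of 4, and the CaPS lines of Tbx3, Tbx5 and Tbx20 lie below both WT lines at day 6 and day 8; under equal sums over peaks Tbx18 is higher than in ESC in both genotypes.

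Set against WT at the same stage, CaPS was lower at Tbx5. At day 6 its RING1B averaged 261 ± 89.7 tags per 10 M in CaPS and 886 ± 47.4 in WT (SD, n = 2 each), a log2 change of -1.80 (SE 0.39, limma adjusted p = 0.000641). At day 8 it averaged 163 ± 54.0 in CaPS and 649 ± 477 in WT (-1.80, adjusted p = 0.00113). In ESC it averaged 836 ± 1.59 in CaPS and 1665 ± 131 in WT (-0.99, adjusted p = 0.463), a value that did not pass. At day 8, Tbx5 no longer passed without the CaPS library of experiment 3, without that of experiment 5 or without the WT library of experiment 5. Without the experiment block it kept its day-6 call (adjusted p = 0.0440) but not that of day 8 (0.106). Over the single libraries left out, the day-8 log2 change ran from -2.46 to -1.13 at Tbx5. It ran from -2.28 to -0.965 at Tbx3 and from -2.11 to -0.786 at Tbx20.

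Tbx5 was the only T-box region of 11 that passed as lower at day 6 (0.325% of all regions) and at day 8 (0.245%), with none higher (3.66% and 0.769%) and none in either direction in ESC (0.0265% and 0.0398%, where 1230 regions by limma and 797 by edgeR, which called none of the T-box regions, had an unadjusted p under 0.05). Tbx3 (log2 -1.41, limma adjusted p = 0.0723 at day 6 and -1.62, 0.0887 at day 8) and Tbx20 (-1.03, 0.124 and -1.45, 0.0547) did not pass. By edgeR both passed as lower at day 8, Tbx3 with an adjusted p of 0.0315 and Tbx20 with one of 0.0367. Over all the settings that kept every library, adjusted p ran from 4.24e-15 to 0.749 at Tbx3 and from 3.45e-12 to 0.749 at Tbx20. At both stages CaPS and WT libraries did not overlap at 3 of the 10 strongest regions, Tbx3, Tbx5 and Tbx20, each with CaPS lower. Over all regions 10.2% lay apart in that direction at day 6 and 12.7% at day 8, and 29% and 26.5% in the other. In the same table, ESC libraries lay apart at 5 genes with CaPS lower, T, Tbx2, Tbx4, Tbx5 and Tbx15 (16.9% of all regions), and at 1, Tbx3, with CaPS higher (21.3%). The median of all regions was +0.41 at day 6 and +0.26 at day 8, so relative to it Tbx3 stood at -1.82 and -1.88, Tbx5 at -2.21 and -2.06, and Tbx20 at -1.44 and -1.71. T, at +0.13 and +0.34, and Eomes, at +0.17 and +0.29, had overlapping groups. With equal sums over peaks 5 T-box regions passed as lower in CaPS at day 6 (1.11% of all regions) and 6 at day 8 (0.967%).

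The separate day-8 table holds the same experiment 3 libraries and a further experiment 4. Tbx3 had 306 and 445 tags per 10 M in CaPS (experiments 3 and 4), against 700 and 1371 in WT. Tbx20 had 220 and 360 in CaPS, against 531 and 936 in WT, and Tbx5 had 63.7 and 80.9 in CaPS, against 164 and 259 in WT. At these 3 genes the CaPS libraries lay below both WT libraries, and at the other 7 the groups overlapped; 26.8% of all 5393 regions lay apart in that direction and 13.2% in the other. Tbx18 had 2480 and 1760 in CaPS, against 1643 and 2057 in WT, and T had 107 and 120 in CaPS, against 74.5 and 310 in WT. Experiment 4, which the time course does not hold, had ratios of CaPS to WT of 0.325 at Tbx3, 0.312 at Tbx5 and 0.384 at Tbx20. Its median over all regions was log2 -0.88, and all 10 genes were lower in CaPS there, as were 78.3% of all regions. In experiment 3 the median of all regions was +0.15, and 6 of the 10 genes and 42.1% of all regions were lower in CaPS. None of 18 T-box regions passed by limma (0% of all regions in either direction, with 532 at an unadjusted p under 0.05), and edgeR also made no call, with 525 such regions. Tbx3 had log2 -1.41 (SE 0.77, limma adjusted p = 0.539), Tbx5 -1.51 (0.565) and Tbx20 -1.32 (0.576). With equal sums over peaks 6 T-box regions passed as lower in CaPS, among 4.51% of all regions.

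H3K27me3 in day-8 NPC differed most at the same 3 genes. In the authors' pooled columns Tbx5 had 188 tags per 10 M in CaPS, against 1161 in WT (ratio 0.162, exact binomial interval at 95% 0.144 to 0.182). Tbx3, over chr5:119653604-119694457, had 960 in CaPS, against 5317 in WT (0.181, 0.171 to 0.190), and Tbx20 had 427 in CaPS, against 1953 in WT (0.219, 0.201 to 0.238). Tbx2 (739 in CaPS, against 2919 in WT) and Tbx4 (612 in CaPS, against 1738 in WT), which adjoin each other, had ratios of 0.253 and 0.352. At the other end stood T, with 578 in CaPS, against 1063 in WT (0.544, 0.492 to 0.603), and Tbx18, with 1228 in CaPS, against 2381 in WT (0.516, 0.482 to 0.552). Tbx15, Tbx1 and Eomes had 0.471, 0.466 and 0.461.

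Of 14 T-box regions 10 were past 2-fold lower in CaPS and 0 past 2-fold higher, among 53.1% and 2.8% of all 8657 regions. The median log2 ratio was -1.31 over the 10 genes and -1.06 over all regions, and the sum over all peaks in CaPS was 0.501 of that in WT. With equal sums 3 T-box regions were past 2-fold lower and 1 past 2-fold higher, among 22.8% and 9.26% of all regions. T and Tbx18, whose ratios exceeded that of the sums, then lay above WT. The CaPS column rests on 32.9 M tags with 8.20% in peaks and the WT column on 4.47 M with 16.4% in peaks. The part of that difference in the ratios was not tested, and there is no replicate. In ESC, H3K27me3 CUT&RUN had its highest ratio of CaPS to WT among the 10 genes at Tbx3 and its lowest at Tbx5.

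**Figure D4:**
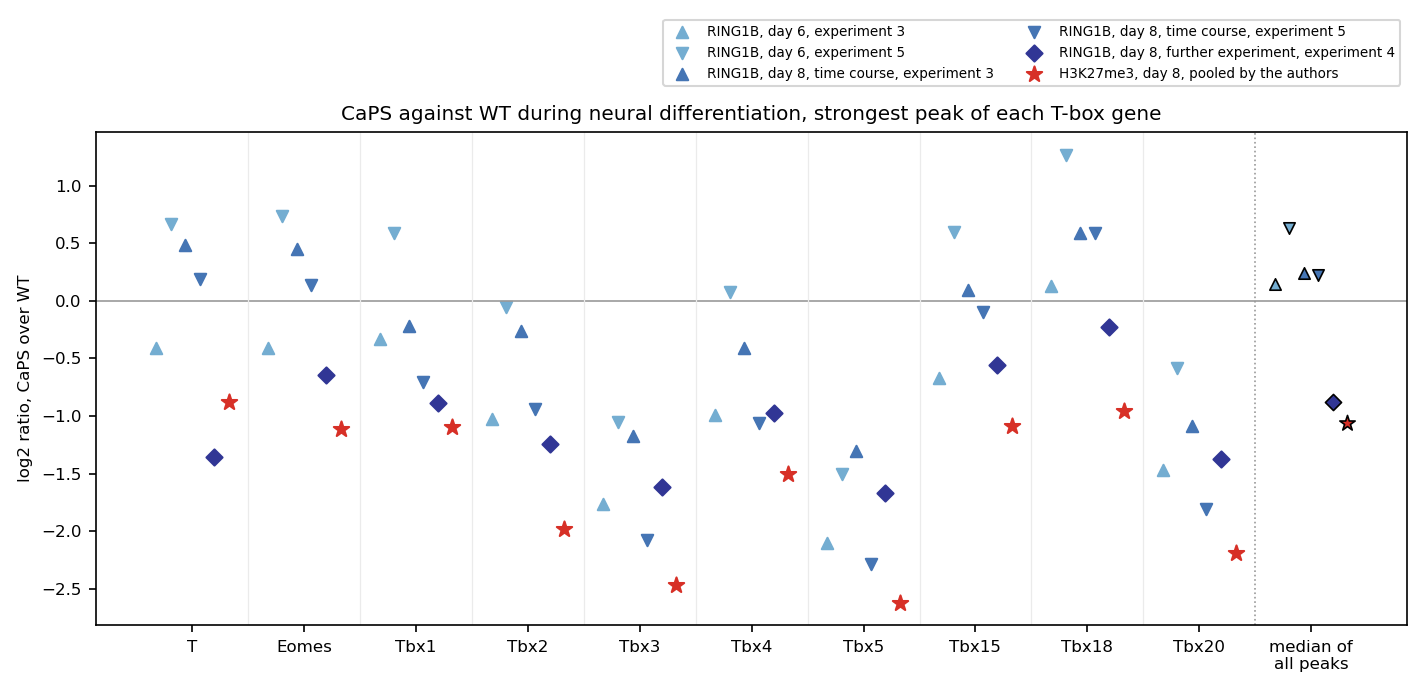
Log2 ratio of CaPS to WT at day 6 and day 8 for the strongest region of each T-box gene, for RING1B ChIP in each experiment (blue) and H3K27me3 ChIP in the authors' pooled columns (red star), with the median of all regions of each table at the right. Tbx2, Tbx3, Tbx5 and Tbx20 lie below 0 in every RING1B experiment, and Tbx3, Tbx5 and Tbx20 have the 3 lowest H3K27me3 ratios, while T, Eomes and Tbx18 lie on both sides of 0 for RING1B; scaling to equal sums moves each set by its own offset.

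**Figure D5:**
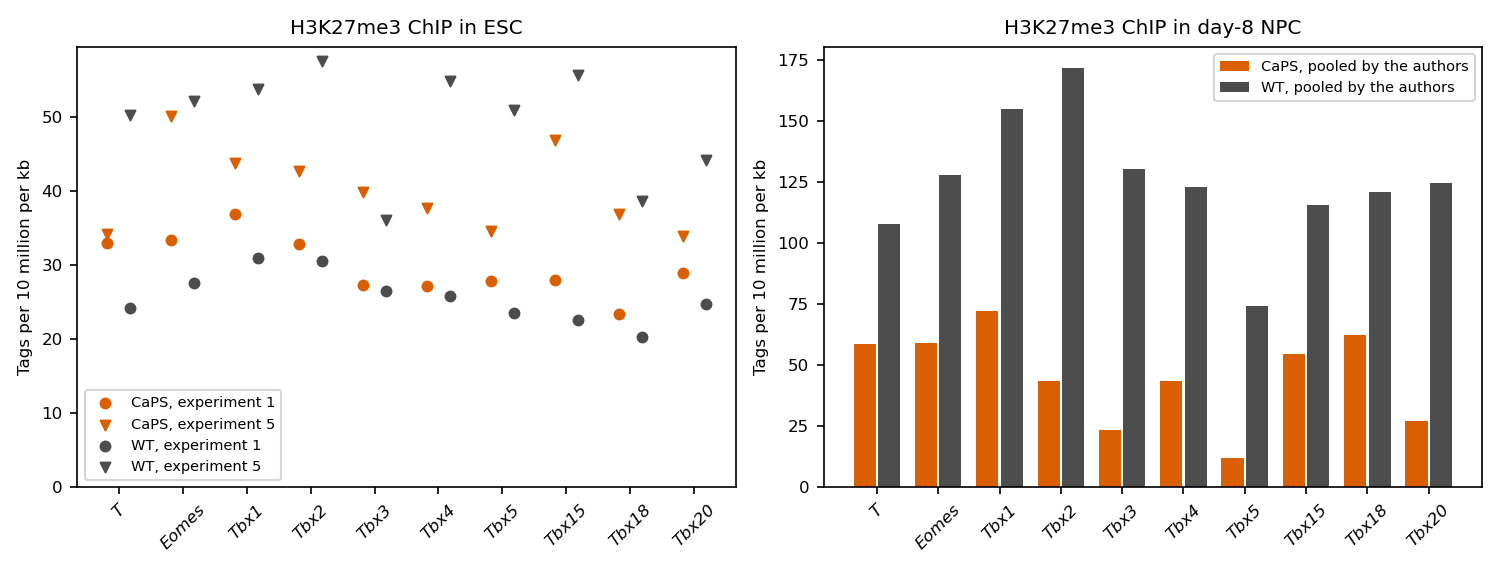
H3K27me3 ChIP signal per 10 M tags and kb over the strongest region of each T-box gene in ESC (left, circles experiment 1 and triangles experiment 5) and in day-8 NPC (right, bars of the authors' pooled columns), CaPS in orange and WT in grey. In ESC the CaPS and WT libraries overlap at every gene, and at day 8 the CaPS bar is below the WT bar at every gene. With equal sums over peaks the day-8 ratios are higher throughout. T and Tbx18, whose ratios exceed that of the sums (0.501), are then above WT.

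In day-10 EB, by RING1B CUT&RUN with 1 library each, CaPS and WT were close at T-box genes. Tbx3 had 707 tags per 10 M in CaPS, against 682 in WT (ratio 1.04, 0.941 to 1.14), and Tbx20 had 232 in CaPS, against 211 in WT (1.10, 0.923 to 1.30). Tbx5 had 74.8 in CaPS, against 77.2 in WT (0.968, 0.719 to 1.30). Ratios ran from 0.822 (0.711 to 0.948) at Tbx1, with 284 in CaPS and 346 in WT, to 1.15 (0.911 to 1.46) at Eomes, with 129 in CaPS and 113 in WT. Tbx1 was the only gene whose interval did not hold equality. Of 17 regions 1 was past 2-fold lower (7.24% of all 6547 regions), a weak region of Tbx20 with 2.44 in CaPS and 8.13 in WT, and 0 past 2-fold higher (13.1%).

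Genes that act with T-box factors were taken from lists. Of 10 measured heart and limb partners, 10 passed as lower for CBX7 in CaPS ESC (44.3% of all regions). For RING1B from ESC to day 8, 6 passed as lower in CaPS (14.1%) and 3 in WT (20.9%). Between genotypes at day 8, 1 of these 10 passed as lower (0.245% of all regions), Gata4, a regulator of heart and endoderm, with a RING1B log2 change of -2.28. All 10 were past 2-fold lower for H3K27me3 at day 8 (53.1% of all regions). Their median log2 was -1.68, against -1.06 over all regions, and Gata4 was the lowest at -3.23. Of 10 primitive streak and mesendoderm partners 9 passed as lower for CBX7, beside the same 44.3% of all regions. Of 11 in the time course, 5 passed as lower at day 8 in CaPS (14.1%) and 8 in WT (20.9%). In WT 1 of the 11 passed as higher (1.73% of all regions), Nodal, the streak-inducing ligand (+1.18). Nodal in CaPS had +0.87, which did not pass. Of 14 neural progenitor regulators all passed as lower for CBX7 (44.3% of all regions), and for H3K27me3 at day 8 5 were past 2-fold lower (53.1%) and 3 past 2-fold higher (2.8%), with a median of -0.23. From ESC to day 8, RING1B passed as lower at 7 of 13 of them in CaPS (14.1% of all regions) and at 9 in WT (20.9%). The medians were -1.09 and -1.62, against -0.48 and -0.61 over all regions. Their RING1B change between genotypes at day 8 had a median of +0.47, against +0.26 over all regions. Of these 13, 0 were called, beside 0.245% lower and 0.769% higher over all regions. Of other T-box genes 4 were measured for CBX7, and 2 passed as lower, near the share over all regions (44.3%). Fibroblast markers, which bear on feeder cells, were past 2-fold lower for H3K27me3 at day 8 at 7 of 7 genes (53.1% of all regions, list median -1.61). For RING1B from ESC to day 8, 4 of 8 passed as lower in CaPS (14.1%) and 6 in WT (20.9%). For RING1B between genotypes at day 8, 0 of 8 passed, beside 0.245% lower and 0.769% higher over all regions. The part of fibroblasts in the values above was not tested. Of 4 measured pluripotent cell markers 1, Sox2, also a neural gene, passed as higher for RING1B in CaPS against WT at day 6 (+2.81) and day 8 (+2.45), among 3.66% and 0.769% of all regions. The others did not pass, with Esrrb at -0.31, Pou5f1 at +0.56 and Klf4 at +0.80 at day 8. None of 5 measured in the separate day-8 table passed by limma, from Nanog at -1.04 to Sox2 at +1.43, with a median of -0.70.

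Over the 12 libraries of the time course the RING1B course most like that of T, among 1866 genes, was at Fgfr3, a growth factor receptor, Islr2 and Tnfaip2, each with Pearson r = 0.992, where the median over all genes was 0.825. For Eomes it was at Gm26688 (0.988), Lhx4 (0.983) and Foxc1 (0.981), with a median of 0.750. These are descriptions over libraries that share depth and stage.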

How the data were processed

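The authors deposited 9 peak tables in which each library has a normalised signal per peak, its tags scaled to 10 M, per the file headers. Tools listed in the submitters' processing notes are HOMER 4.10.4, Bowtie2 2.3.4.3, SAMtools 1.9 and cutadapt 1.14, with the mm10 and dm6 builds. Peaks were called over input for ChIP and over IgG for CUT&RUN, per the series design text. Drosophila chromatin was added to ChIP samples per the labels' protocols, and no source used here says whether the header totals correct for it. Values times header total gave whole multiples of 0.5 tags for 100% of values within 0.1 of a step (largest deviation 0.0491), so counts were recovered for all columns. Of per-sample columns, 2 matched no sample's labels and were not used. RING1B CUT&RUN columns of ESC name the genotype without a sample number.

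The test was limma 3.58.1 (eBayes with trend, R 4.3.3) on log2(value + 1), with the experiment number as a block and Benjamini-Hochberg adjustment over all peaks of a table, called at 0.05. A fold change on this scale is understated for weak peaks. Prior degrees of freedom were infinite, so a p-value rests on the typical scatter of similarly strong peaks rather than on that of the peak itself. The block follows the design text, which says that compared experiments were run together. Same-numbered libraries correlated after removal of group means at 0.04 to 0.30 for CBX7, -0.02 to 0.23 for RING1B and 0.09 for H3K27me3 in ESC, 0.25 at day 8 and 0.06 to 0.22 in the time course. Where a group had 1 library, values were counted past 2-fold and ratios have exact binomial (Clopper-Pearson) intervals. Alternatives included edgeR 4.0.16 on recovered counts. The fits were also run on simulated counts with changes larger than most given here and with no experiment effect. Such counts cannot show how well smaller changes are called in these libraries. Tables were scaled separately and were not compared in level.

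Named genes were all members, the lists, and for T and Eomes the 3 genes of highest Pearson r among those with a mean of at least 50 tags per 10 M. Members and lists were chosen with earlier results of these data known.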

Additional observations from a re-analysis of the deposited data

How the results depend on the processing

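Of the values of single genes under the alternatives, 1075 were counted as unchanged, 103 fell below the threshold, 50 passed it and 17 changed sign. Unchanged means the same direction and side of the threshold. For fits without a test it means the same direction and a move smaller than the SE times the square root of n. Of the counts of T-box regions 393 stayed within 1.5 times and 74 did not. The cause of these moves was not tested. Scaling to the same sum over peaks changed most: calls became 0 lower and 1 higher for CBX7, 6 lower for day-8 RING1B, 3 higher at day 6 and 2 lower and 4 higher at day 8 in WT, 1 higher at day 6 and 2 higher at day 8 in CaPS, and, for CaPS against WT, 1 lower in ESC, 5 at day 6 and 6 at day 8, with 3 and 5 for the difference in the changes. In CUT&RUN of RING1B in ESC it left 0 past 2-fold lower in each comparison, with 1 higher for mCaPS against CaPS, and for day-8 H3K27me3 3 lower and 1 higher. Under it CBX7 turned to log2 0.37 at Tbx3, 0.025 at Tbx2, 0.17 at Tbx1, 0.081 at Eomes and 0.044 at Tbx18, ESC RING1B to 0.0020 at Tbx2, 0.15 at Tbx18 and 0.053 at Tbx1, WT day 6 to 0.051 at Eomes, 0.028 at Tbx2 and 0.25 at Tbx15, WT day 8 to 0.29 at Eomes and 0.49 at Tbx15, and CaPS day 8 to 0.054 at Eomes. Without the experiment block CBX7 gave 0 calls, WT 1 at day 6 and 3 at day 8, CaPS 1 at day 6, and CaPS against WT 0 at day 8; over all regions it gave 2 lower CBX7 calls, against 2801 with it. With tags not scaled to 10 M, an alternative chosen after seeing the data, CBX7, both stages in both genotypes and CaPS against WT at day 6 and day 8 gave 0, and day-8 RING1B turned to 0.29 at Tbx2, 0.38 at Tbx4 and 0.52 at Tbx1. Keeping only regions within 2 kb of a start takes fewer T-box regions and leaves the calls and the shares of all regions as they were. Of such regions, 6 were called for CBX7, which were all that its table held. In the time course 3 were called for WT day 8, and 0 for CaPS against WT at day 6 and day 8. Past 2-fold were 0 of 8 in RING1B CUT&RUN for CaPS against WT and 0 of 8 for mCaPS against CaPS. For day-8 H3K27me3 it was 3 of 4, and in EB 0 of 7. With a mean of at least 20 tags per 10 M, 1 was called for ESC RING1B, 2 lower and 1 higher at day 6 and 3 lower at day 8 between genotypes, and 0 past 2-fold for CUT&RUN of RING1B in CaPS against WT and in EB; a pseudocount of 10 gave 2 lower and 1 higher at day 6 and 3 at day 8. By edgeR 3 were called at day 8 between genotypes, and its other counts of T-box regions, among them 10 lower for CBX7, stayed within 1.5 times. A limit of 1.5-fold gave 4 lower for RING1B CUT&RUN in CaPS against WT, 12 lower and 1 higher for mCaPS against CaPS, 2 higher for H3K27me3 CUT&RUN, and 2 lower and 1 higher in EB. Leaving out 1 library or pair gave 0 to 12 lower calls for CBX7, 0 to 11 for ESC RING1B, 0 to 4 and 3 to 7 for CaPS at day 6 and day 8, 1 to 3 and 3 to 6 for WT, and, between genotypes, 0 in ESC, 1 lower with 0 to 1 higher at day 6 and 0 to 3 at day 8; the lone library is then assumed to vary like the other groups. For ESC H3K27me3 and day-8 RING1B, leaving out a pair leaves no residual degrees of freedom and gives values without a test. No direction is given for genes with a value within 0.5 of 0 on the log2 scale that did not pass. Depth limits mainly experiment 5 of the time course, where 3 tags stand for up to 14.9 tags per 10 M.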

Other observations

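Around Tbx3 and Tbx5, further regions chosen after their values were seen also had less H3K27me3 at day 8 in the CaPS column than in the WT column. Both regions named for Tbx3os2, a non-coding RNA gene beside Tbx3, had 43.6 tags per 10 M in CaPS, against 257 in WT (ratio 0.170), and 113 in CaPS, against 309 in WT (0.367). A region at -32472 bases from the start of Tbx5, outside the distance rule, had 378 in CaPS, against 1341 in WT (0.282). The next strong domain on the chromosome, at Lhx5, a LIM homeobox gene, had 1538 in CaPS, against 3288 in WT (0.468), close to the ratio of 0.501 of the sums over all peaks. The 2 weaker regions named for Lhx5 had ratios of 1.03 and 0.895. Low ratios also occurred further off: a weak region named for 4930413E15Rik, before Tbx3 on the chromosome (chr5:118876773-118879974), had 22.7 in CaPS, against 117 in WT (0.193). Regions past Lhx5 named for Rasal1 and Dtx1 had ratios from 0.485 to 0.645. These are single pooled columns with no replicate.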
